A study of Mus musculus with 6 samples.

Results

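The transcription factor genes Nr4a1, Nr4a2, Nr4a3, Egr1, Egr2 and Egr3, which T cell receptor (TCR) signalling induces, are described here in CD8 T cells sorted from mouse spleen. The 6 genes were taken by symbol from the authors' full table of 17744 genes, and all 6 were found. They had been proposed with their values in the comparison of ultrasound with control already known, so their levels are given as a description, with no test. RNA-seq was done on 3 control libraries and 3 ultrasound libraries, in which the cells had been sorted as CD45+ CD3+ CD8a+. The controls are labelled as wild type with the treatment "control". The ultrasound animals are labelled "fus irradiation", focused ultrasound directed at the spleen according to the series title, and the field for genotype repeats the treatment and so gives no strain. The labels give no age, sex, dose or interval after treatment, and do not say whether the animals carried tumours or whether each library is 1 animal. Any p-value therefore measures the spread between these libraries, which may be technical.

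Nr4a1, Nr4a2 and Nr4a3 (also called Nur77, Nurr1 and Nor1) are orphan nuclear receptors whose activity depends mainly on how much of them is made. Egr1, Egr2 and Egr3 are zinc finger factors that bind GC-rich promoter sites. In T cells all are immediate early genes, which antigen recognition switches on within a short time. The signals run through Ras, MAP kinases and the serum response factor SRF, and through calcium, MEF2 and NFAT. Nr4a factors are known for restraining effector programmes and supporting exhaustion, and Egr2 and Egr3 for switching on inhibitors of TCR signalling, while Nr4a1 and Egr1 also respond to many other stimuli, handling of cells among them.

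RefSeq promoter windows (GRCm38.p6) were used for 4 of the 6 genes, and the 250 bases before a transcript start were searched on both strands. The windows are shown because the letters shared by the 3 Nr4a genes can be seen in them. Capitals mark matches to the cyclic AMP response element core TGACG (CRE core; it reads CGTCA from the other strand), the AP-1-like element TGCGTCA, the AP-1 motif TGANTCA, the Egr motif GCGNGGGCG, the CArG box bound by SRF and the MEF2 site. The AP-1-like element contains the CRE core, so both count the same bases in Nr4a1.
Nr4a1, chr15:101266596-101266845, plus strand, ahead of the start of the shorter transcript: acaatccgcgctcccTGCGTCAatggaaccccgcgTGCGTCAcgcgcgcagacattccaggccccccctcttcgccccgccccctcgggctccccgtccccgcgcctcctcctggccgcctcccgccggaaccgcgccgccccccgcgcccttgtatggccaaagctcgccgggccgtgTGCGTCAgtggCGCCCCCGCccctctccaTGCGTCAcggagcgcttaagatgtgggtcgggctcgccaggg
Nr4a2, chr2:57124004-57124253, minus strand: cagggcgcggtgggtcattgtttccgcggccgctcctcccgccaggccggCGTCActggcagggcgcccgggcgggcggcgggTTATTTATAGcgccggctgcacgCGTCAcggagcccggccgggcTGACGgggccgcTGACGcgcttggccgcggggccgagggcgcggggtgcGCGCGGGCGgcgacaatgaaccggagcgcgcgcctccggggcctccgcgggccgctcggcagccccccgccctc
Nr4a3, chr4:48045085-48045114, plus strand, a stretch with 2 of the 4 CRE cores: cccatgtCGTCAcatTGACGtctcgcattc
Egr2, chr10:67537790-67537819, plus strand, a stretch with the CArG box and a CRE core: cctcagtCCATATATGGgcagcgaCGTCAc

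The windows of Nr4a1, Nr4a2 and Nr4a3 each hold 4 matches to the CRE core. Of 32817 promoter windows of this length, 17.7% hold at least 1 such match and 0.137% (45 windows of 44 genes) hold 4 or more. In Nr4a1 all 4 lie within the AP-1-like element, which occurs in 1.74% of windows, and 1 window, that of Nr4a1, holds 4 or more. The cut of 4 equals the count found in the Nr4a windows, so the numbers of windows with 4 or more are no background for them. The Egr2 window of the start shown holds 2 CRE cores and a CArG box that begins 72 bases before the start. This motif is found in 1.47% of windows, but the start was chosen for it, so that share is no background here. Egr2 has other RefSeq starts. The window of start 67535499 holds 0 matches, and that of 67537566 holds a different CArG box and 0 CRE cores. Those of 67537870 and 67537930 overlap the one shown and hold the same box. Nr4a2 has a MEF2 site, present in 2.92% of windows, and both Nr4a1 and Nr4a2 have 1 Egr motif, present in 4.70%. No full TGACGTCA and no AP-1 motif was matched in these 4 windows, against 1.55% and 6.75% of all windows. The windows of Nr4a1 and Nr4a2 and that of the Egr2 start shown hold 0 bases of GENCODE M21 exons, whereas 152 of the 250 bases of the Nr4a3 window lie in exons. RefSeq begins the Nr4a3 gene at base 48045078, so the stretch shown and 3 of the window's 4 CRE cores lie inside the gene, ahead of a later start. The windows of Nr4a1 and of this Egr2 start also lie inside their genes, and that of Nr4a2 lies ahead of the whole gene. These matches are letters in a window and were not tested for binding.

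**Figure D1:**
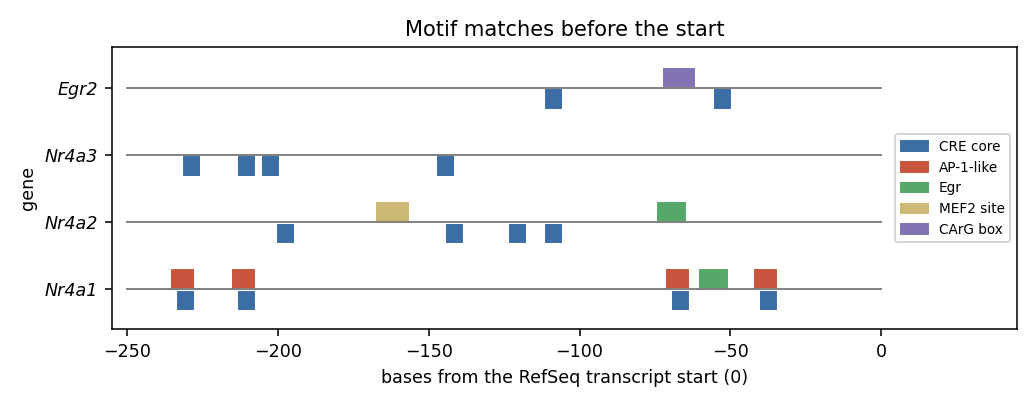
Motif matches in the 250 bases before a RefSeq transcript start of 4 genes, with the x axis in bases from the start and each block drawn to its length (CRE cores below the line, other motifs above it). Nr4a1, Nr4a2 and Nr4a3 carry 4 CRE cores each. Egr2 carries 2 at the start drawn, which was chosen among its starts for a CArG box.

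The 3 ultrasound libraries were not alike. Ultrasound 2 and ultrasound 3 stood apart from ultrasound 1: reads of 13 mitochondrial genes made up 0.954% and 0.937% there, against 2.19% in ultrasound 1 and 2.05% to 2.70% in the controls. Each library held 35024080 to 38113103 reads recovered from the deposited values. Markers of the sorted cells were present, with Cd8a between 286 and 314 FPKM in controls and between 251 and 308 in ultrasound libraries, and 0 of 12 T cell genes passed limma's test at an adjusted p under 0.05 (2 at an unadjusted p under 0.05). Of 18 monocyte and macrophage markers, 15 had all ultrasound levels above all control levels, as did 25.9% of all tested genes, and the sum of the 18 was 446 to 956 FPKM in controls and 2189 to 3710 in ultrasound libraries. Summed neutrophil markers were at 189 to 577 FPKM in controls, 2320 in ultrasound 1, and 649 and 682 in ultrasound 2 and 3. B cell markers summed to 216 to 329 FPKM in controls, 160 in ultrasound 1, and 852 and 739 in ultrasound 2 and 3. None of these markers was at 0 in all libraries. Monocytes, macrophages and B cells also make Nr4a1 and Egr1, and the part of such cells in the levels below was not tested. In bulk RNA, fewer cells that express a gene and less of its RNA per cell cannot be told apart.

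All 6 genes were lower in each ultrasound library than in each control library, by 1.68-fold to 7.08-fold on the group means of FPKM (fragments per kilobase of gene, scaled to the mapped fragments of the library). Over all 10655 genes tested, 8.96% were lower in that way. The median log2 change of the 6, on the log2(FPKM + 1) scale used throughout, was -1.29, where the median over all tested genes was 0.09. That scale understates the change of low genes. Since the genes were chosen on this contrast, nothing is read from these counts.

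**Figure D2:**
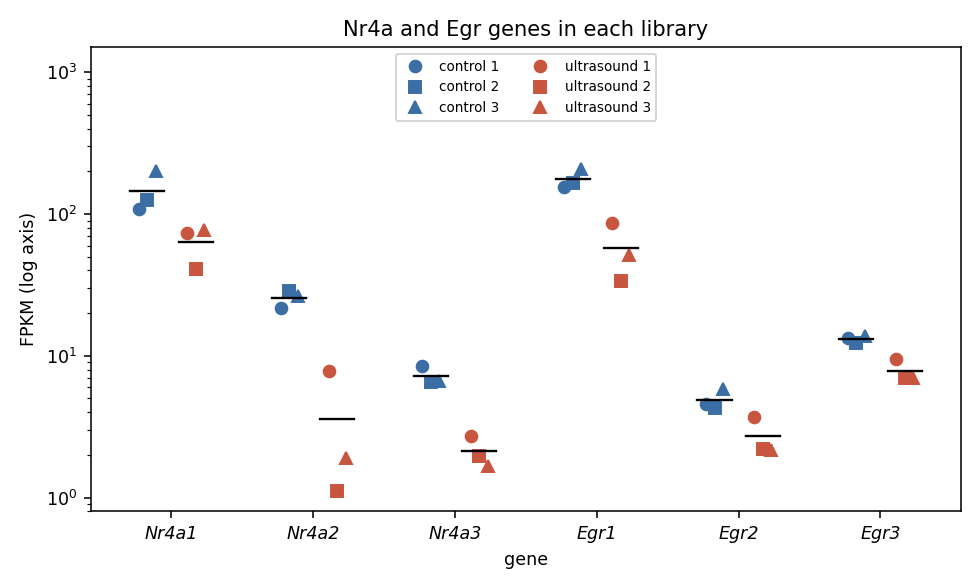
FPKM of each gene (log axis) in the 3 control libraries (blue) and the 3 ultrasound libraries (red), with shapes for the library number and bars for the group mean. All red points of a gene lie below its blue points, with group means farthest apart for Nr4a2 (25.5 against 3.61 FPKM) and closest, as a ratio, for Egr3 (13.2 against 7.82 FPKM).

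Nr4a1, the receptor most used as a reporter of antigen signalling, had 109, 125 and 201 FPKM in the controls and 73.3, 40.7 and 77.8 FPKM in ultrasound 1, 2 and 3. The lowest control exceeded the highest ultrasound library by 1.40-fold, less than the 1.85-fold spread among the controls themselves. Group means were 145 ± 49.4 and 63.9 ± 20.2 FPKM (SD, n = 3 each), and the log2 change was -1.17. Nr4a1 was the one gene of the 6 in which ultrasound 1 was not the highest ultrasound library: ultrasound 3 was, 1.91-fold above ultrasound 2. These values rest on 7821 to 36402 reads a library.

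Nr4a2, the family member with the largest drop, had 21.6, 28.5 and 26.5 FPKM in the controls. Ultrasound 1 kept 7.79 FPKM, whereas ultrasound 2 and ultrasound 3 had 1.11 and 1.92 FPKM. As a share of the control mean these are 30.5%, 4.35% and 7.50%, a 7.02-fold spread within the ultrasound group against 1.32-fold among controls. Group means were 25.5 ± 3.54 and 3.61 ± 3.65 FPKM (SD, n = 3 each). The log2 change was -2.80, and 5 of the 10655 tested genes had a lower log2 change. The drop was deeper in ultrasound 2 and 3, and was present in ultrasound 1, which lay 2.77-fold below the lowest control. The 167 reads of ultrasound 2 were the fewest behind any value of the 6 genes.

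Nr4a3 had 8.48, 6.50 and 6.67 FPKM in the controls and 2.73, 1.95 and 1.67 FPKM in ultrasound 1, 2 and 3. Both groups were tight, with a 1.30-fold spread in controls and 1.63-fold in ultrasound libraries, and the gap between the groups was 2.38-fold. The means were 7.22 ± 1.10 and 2.12 ± 0.548 FPKM (SD, n = 3 each), and their log2 change was -1.40. For this low gene the choice of scale matters: with a pseudocount of 0.1 the log2 change was -1.74, and in the authors' deposited table it is -1.89. Ultrasound 1, 2 and 3 were at 37.8%, 27.0% and 23.2% of the control mean, the smallest spread within the ultrasound group among the Nr4a genes.

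The make-up of the Nr4a family shifted with these unequal drops. Nr4a1 made up 78.4%, 78.1% and 85.9% of the summed FPKM of the 3 genes in controls and 87.5%, 93.0% and 95.6% in ultrasound 1, 2 and 3. The share of Nr4a2 was 14.9% ± 3.32 in controls and 4.73% ± 3.96 in ultrasound libraries (SD, n = 3 each), with 9.30% in ultrasound 1 and 2.54% and 2.36% in the other two. Nr4a3 kept overlapping shares, 2.84% to 6.10% in controls and 2.06% to 4.46% in ultrasound libraries. The ratio of Nr4a1 to Nr4a2 FPKM was 5.04, 4.38 and 7.60 in controls, 9.41 in ultrasound 1, and 36.7 and 40.6 in ultrasound 2 and 3.

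Egr1 had the highest FPKM of the 6 in all controls, at 156, 165 and 207 FPKM. By reads, Nr4a1 was higher there, with 19709, 22389 and 36402 against 16943, 17755 and 22463 for Egr1. Egr1 had 87.1 FPKM in ultrasound 1 and 33.8 and 51.3 FPKM in ultrasound 2 and 3. These are 49.4%, 19.2% and 29.1% of the control mean. The groups did not overlap, and the lowest control was 1.79-fold above ultrasound 1. Means were 176 ± 27.3 and 57.4 ± 27.2 FPKM (SD, n = 3 each), with -1.69 as the log2 change.

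Egr2, which with Egr3 is known for limiting T cell activation, had the lowest FPKM of the 6 genes in controls, at 4.58, 4.26 and 5.87. It had 3.71, 2.22 and 2.17 FPKM in ultrasound 1, 2 and 3. Ultrasound 1 lay only 1.15-fold below the lowest control, the narrowest margin of the 6, and less than the 1.38-fold spread among controls. The log2 change was -0.69, from 4.90 ± 0.851 to 2.70 ± 0.877 FPKM (SD, n = 3 each).

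Egr3 was the steadiest of the 6 within groups, with 13.4, 12.4 and 13.7 FPKM in controls, a 1.11-fold spread. It had 9.45 FPKM in ultrasound 1 and 7.01 FPKM in both ultrasound 2 and ultrasound 3. The margin between groups was 1.31-fold, and the means were 13.2 ± 0.718 and 7.82 ± 1.41 FPKM (SD, n = 3 each). Its log2 change, -0.69, was the same as that of Egr2 at this rounding. The ratio of Egr3 to Egr2 FPKM stayed between 2.34 and 3.23 in all 6 libraries, without separating the groups. This ratio depends on the lengths used for FPKM, since control 1 had 1958 reads of Egr3 and 1468 of Egr2.

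Egr1 made up less of its family in ultrasound libraries. Its share of the summed Egr1, Egr2 and Egr3 FPKM was 89.7% to 91.4% in controls, 86.9% in ultrasound 1, and 78.6% and 84.8% in ultrasound 2 and 3. The share of Egr3 was 6.85% ± 0.825 in controls and 12.4% ± 3.50 in ultrasound libraries (SD, n = 3 each). The FPKM of Egr1 was 11.6, 13.4 and 15.1 times that of Egr3 in controls, and 9.21, 4.83 and 7.32 times in ultrasound 1, 2 and 3. Shares and ratios between genes, here and for the Nr4a genes, depend on the lengths used for FPKM.

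**Figure D3:**
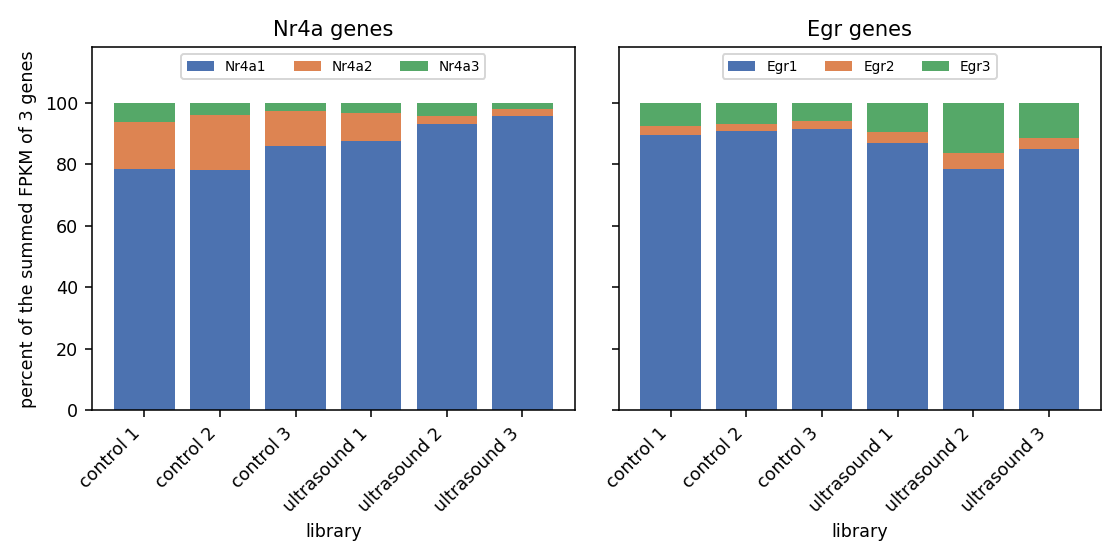
Share of each gene in the summed FPKM of its family (y axis, percent) in each library (x axis). The orange band of Nr4a2 shrinks from between 11.3% and 17.8% in controls to 2.54% and 2.36% in ultrasound 2 and 3, and the green band of Egr3 widens from at most 7.70% to at least 9.43%.

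By FPKM, the order of the 6 genes was the same in all 3 controls, Egr1, Nr4a1, Nr4a2, Egr3, Nr4a3 and Egr2 from high to low. The neighbours Egr1 and Nr4a1 overlapped in range there, at 156 to 207 and 109 to 201 FPKM, as levels per gene length. This order depends on the lengths used for FPKM. By reads, Nr4a1 stood above Egr1 in every control, and Egr2 (1881 reads) stood above Nr4a3 (1794 reads) in control 3. In ultrasound 1 the order was Egr1, Nr4a1, Egr3, Nr4a2, Egr2 and Nr4a3. In ultrasound 2 and 3 Nr4a1 stood above Egr1 and Egr2 stood in the fourth place. Nr4a2 was last in ultrasound 2 and next to last in ultrasound 3, where it and Nr4a3 differed by 1.15-fold.

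The 6 genes were also set against the level of T cell genes, since ultrasound 1 differed in both. The geometric mean of 12 T cell genes was 189 FPKM there, against 215, 231 and 229 FPKM in controls and 231 and 219 FPKM in ultrasound 2 and 3. Of these 12 genes, 10 were lower in ultrasound 1 than in every control, as were 23.1% of all tested genes. Per T cell gene level, Egr2 in ultrasound 1 was at 90.2% of the control mean, in place of 75.7%, and overlapped the controls. Egr3 there was at 85.4%, just below the lowest control. Nr4a1, Nr4a2, Nr4a3 and Egr1 in ultrasound 1 were at 60.5%, 36.5%, 44.8% and 59.0% of the control mean on this scale, below every control. Without ultrasound 1, the log2 changes of FPKM + 1 were -1.30, -3.41 and -1.54 for Nr4a1, Nr4a2 and Nr4a3, and -2.04, -0.88 and -0.82 for Egr1, Egr2 and Egr3. The mean of the 3 ultrasound libraries relative to T cell genes ran from 16.1% of control for Nr4a2 to 63.8% for Egr3.

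**Figure D4:**
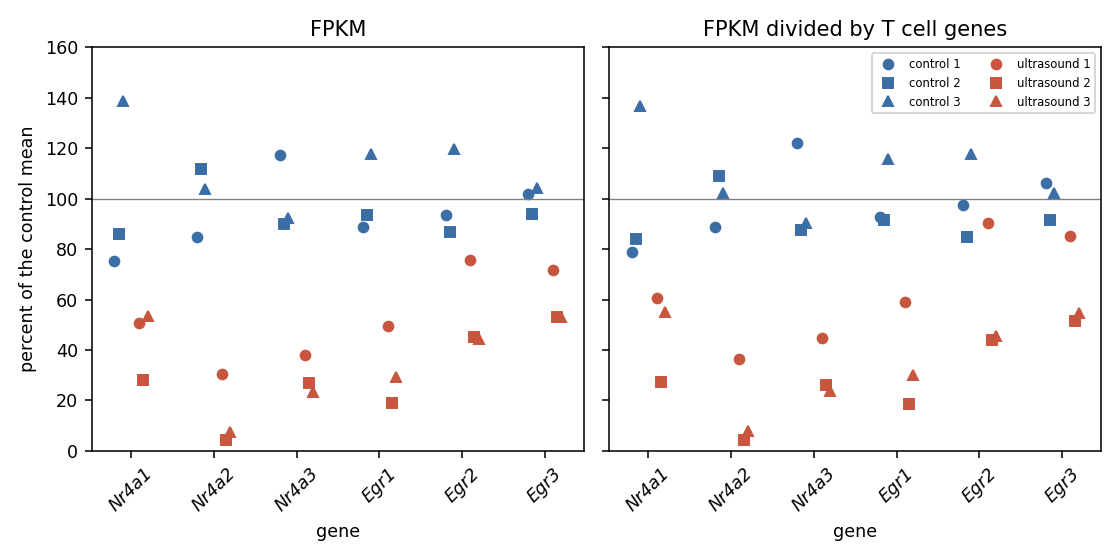
Level of each gene in each library as a percent of the control mean (y axis, grey line at 100%), as FPKM (left) and divided by the geometric mean of 12 T cell genes (right). The red circles of ultrasound 1 move up on the right, from 75.7% to 90.2% for Egr2 and from 71.8% to 85.4% for Egr3.

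The fourth Egr gene and the Egr corepressors were looked at next. Egr4 was low, with 20, 26 and 34 reads (0.264, 0.346 and 0.449 FPKM) in controls and 6, 10 and 6 reads in ultrasound 1, 2 and 3. It was too low to enter the test, although its reads did not overlap between groups. Nab1 and Nab2, which bind Egr proteins and repress their targets, did not pass. Nab1 had 25.0 ± 1.65 and 21.6 ± 5.10 FPKM in controls and ultrasound libraries (SD, n = 3 each, adjusted p 0.349 by limma). Nab2, itself induced by Egr factors in other settings, had 22.4 ± 4.15 and 20.9 ± 1.47 FPKM (SD, n = 3 each, adjusted p 0.685 by limma). The levels of both overlapped between groups.

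The question for the other genes, which were tested in one limma fit over 10655 genes, was how the genes around these 6 stood. In that fit 8.11% of genes passed at an adjusted p under 0.05, of all tested genes 6.55% with higher and 1.56% with lower levels after ultrasound. This split depended on scaling: 698 higher and 166 lower in this fit became 280 and 188 with median-of-ratios size factors and 1698 and 95 relative to T cell genes. With median-of-ratios factors the median of all genes moved from 0.09 to -0.02. No gene passed without control 2, control 3, ultrasound 2 or ultrasound 3, with 1913 to 2137 genes at an unadjusted p under 0.05, whereas 571 passed without control 1 and 5628 without ultrasound 1.

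Most of the other TCR-induced immediate early genes fell alongside the 6. Of 34 tested, 20 passed and all 20 were lower, 58.8% of the list against 1.56% of all genes lower, with a median log2 change of -1.26. In all, 29 of the 34 had every ultrasound level below every control level, as did 8.96% of all tested genes. The count of genes that passed was 13 with median-of-ratios factors and also relative to T cell genes. It was 6 without control 1, 31 without ultrasound 1 (30 of them lower), and 0 without any 1 of the other 4 libraries, where 27 to 29 had an unadjusted p under 0.05. The list was written with earlier results of these data known.

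Among those that passed, Maff, a small Maf factor, had 26.7, 26.8 and 34.5 FPKM in controls and 10.2, 0.422 and 0.399 FPKM in ultrasound 1, 2 and 3 (limma adjusted p 0.0463). Fosb, an AP-1 subunit, had 278, 285 and 284 FPKM against 110, 22.9 and 52.4 FPKM (limma adjusted p 0.0385). Both show the deep drop in ultrasound 2 and 3 and the middle place of ultrasound 1 that Nr4a2 had. Tnfaip3, the A20 inhibitor of NF-kB signalling, and Cd69, an early activation antigen, had log2 changes of -2.56 and -2.48 (limma adjusted p 0.0487 and 0.0442). With median-of-ratios factors Fosb passed, and Maff, Tnfaip3 and Cd69 did not (limma adjusted p 0.0539, 0.0556 and 0.0524). Relative to T cell genes Tnfaip3 did not pass (limma adjusted p 0.0534).

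The most abundant list genes that did not pass also had lower levels in all 3 ultrasound libraries. Fos had 688 ± 82.7 FPKM in controls and 300 ± 147 FPKM in ultrasound libraries (SD, n = 3 each, adjusted p 0.0688 by limma). Dusp1, a MAP kinase phosphatase, had a log2 difference of -1.38 with limma adjusted p 0.107. Nfkbia, which encodes an NF-kB inhibitor, and Zfp36, which promotes mRNA decay, had -1.13 and -0.73 with limma adjusted p 0.0529 and 0.0749.

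The 5 tested genes of the list whose groups overlapped are named after their values were seen. Myc, a growth factor-induced transcription factor gene, had 87.1, 78.3 and 85.3 FPKM in controls and 103, 84.9 and 82.3 FPKM in ultrasound libraries (limma adjusted p 0.543). Tnfrsf9, a costimulatory receptor that activated CD8 T cells make, had means of 11.3 and 11.5 FPKM in controls and ultrasound libraries, with SDs of 1.28 and 1.46 (n = 3 each, limma adjusted p 0.936). Their groups overlapped, though a p above the threshold does not show that levels were equal. Spry2 and Cd200 had log2 differences of 0.19 and -0.28. Ier3 differed among ultrasound libraries, with 65.3 FPKM in ultrasound 1 and 8.12 and 10.7 FPKM in ultrasound 2 and 3, on either side of the controls at 21.2 to 31.3 FPKM.

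**Figure D5:**
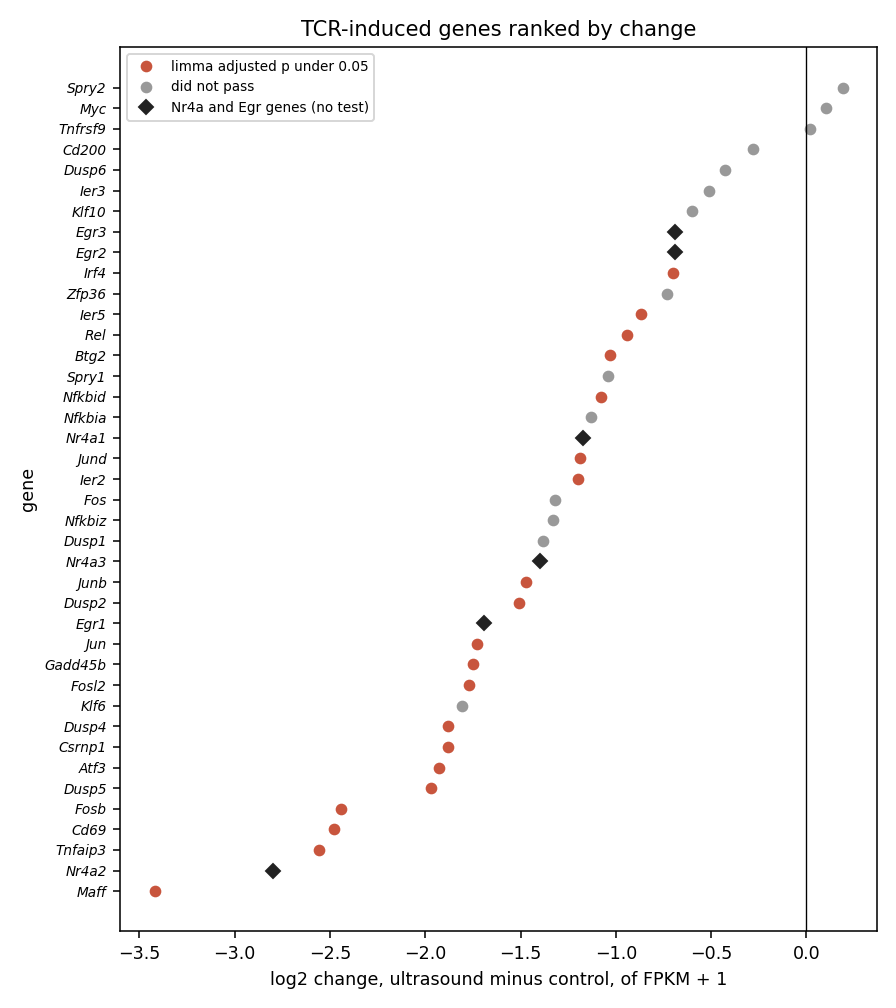
Log2 change of FPKM + 1 (x axis, ultrasound minus control) for 34 TCR-induced genes, red where limma's adjusted p was under 0.05 and grey where not, and for the 6 Nr4a and Egr genes as black diamonds with no test. Nr4a2 at -2.80 lies between Maff at -3.42 and Tnfaip3 at -2.56, and Egr2 and Egr3 lie at the upper end of the genes that fell, near Irf4 at -0.70.

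Of 22 tested genes of the route from Ras and MAP kinases to SRF, 1 passed (4.55%, near the 8.11% of all tested genes). The median log2 change was 0.01, with 11 values above 0 and 11 below. The gene that passed, Mapk3, which encodes the kinase ERK1, rose, with 23.8 ± 1.10 FPKM in controls and 47.4 ± 8.91 FPKM after ultrasound (SD, n = 3 each, adjusted p 0.0304 by limma), with 38.3, 47.8 and 56.1 FPKM in ultrasound 1, 2 and 3. Rasgrp1, the diacylglycerol-dependent Ras activator of T cells, had 67.3 ± 4.97 and 54.1 ± 3.67 FPKM (SD, n = 3 each, adjusted p 0.0903 by limma). The ERK-activated kinase gene Rps6ka1 and the SRF coactivator gene Mrtfa had log2 differences of 0.38 and 0.26 (limma adjusted p 0.154 and 0.286). Summed monocyte and macrophage markers were higher in the same libraries as Mapk3, and their part in its rise was not tested. Without ultrasound 1, 15 of 22 passed, 7 higher and 8 lower, and without control 2, control 3, ultrasound 2 or ultrasound 3, 0 passed, with 2 to 4 at an unadjusted p under 0.05.

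Of 21 tested genes of the calcium, NFAT and MEF2 route, 2 passed, both higher. This share of 9.52% is near the 8.11% of all tested genes, of which 6.55% were higher, and the median log2 change was -0.13. Rcan1, a calcineurin regulator that NFAT induces, rose, from a control mean of 3.04 ± 0.464 FPKM to 6.06 ± 1.47 FPKM (SD, n = 3 each, adjusted p 0.0464 by limma). Orai1, the pore of the store-operated calcium channel, rose, from a control mean of 11.1 ± 0.895 FPKM to 17.2 ± 1.53 FPKM (SD, n = 3 each, adjusted p 0.0311 by limma). Both were thus higher where the Nr4a and Egr genes were lower. Myeloid markers were higher in the same libraries, and their part was not tested. With median-of-ratios factors neither passed (limma adjusted p 0.0702 and 0.0565), and the log2 changes were 0.69 and 0.48. Relative to T cell genes both passed (limma adjusted p 0.0292 and 0.0289), on a scale that called 1698 genes higher. Calm2 and Calm3, which encode calmodulin, had log2 differences of -0.39 and 0.30, and Plcg1, the phospholipase that starts the calcium signal, -0.17 (limma adjusted p 0.111 to 0.234). Without control 1 the count was 1, and without ultrasound 1 it was 15 (8 higher, 7 lower). Without any 1 of the other 4 libraries it was 0, with 3 to 5 at an unadjusted p under 0.05.

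Of 19 tested genes reported as Egr2 and Egr3 targets in T cells, 1 passed (5.26%, near the 8.11% of all tested genes). The median log2 change was -0.18. Ndrg1, linked to T cell anergy, rose, from a control mean of 4.32 ± 0.408 FPKM to 7.68 ± 1.34 FPKM (SD, n = 3 each, adjusted p 0.0377 by limma). It did not pass with median-of-ratios factors (limma adjusted p 0.0619) and passed relative to T cell genes (limma adjusted p 0.0287). Dgka, which removes the diacylglycerol that activates Ras, had 275, 322 and 343 FPKM in controls and 251, 251 and 254 FPKM in ultrasound libraries (limma adjusted p 0.110). Its groups did not overlap. Socs3, an inhibitor of cytokine signalling, had 177 FPKM in ultrasound 1, within the controls at 170 to 193 FPKM, and 60.6 and 82.8 FPKM in ultrasound 2 and 3 (limma adjusted p 0.151). Id3, an inhibitor of E proteins that Egr factors induce in thymocytes, had 49.6 ± 6.99 and 30.9 ± 7.69 FPKM (SD, n = 3 each, adjusted p 0.0815 by limma), and Dgkz a log2 difference of 0.03 (limma adjusted p 0.871). The count was 10 without ultrasound 1 (2 higher, 8 lower) and 0 without any other single library, with 3 to 6 at an unadjusted p under 0.05.

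Genes linked to Nr4a factors in T cells went both ways. Of 20 tested, 4 passed, 2 higher and 2 lower, where 8.11% of all tested genes passed, 6.55% higher and 1.56% lower. The median log2 change was -0.16. Irf4, a factor whose level follows TCR signal strength and which is also on the immediate early list, fell, from a control mean of 25.3 ± 2.26 FPKM to 15.2 ± 1.15 FPKM (SD, n = 3 each, adjusted p 0.0304 by limma). The inhibitory receptor gene Havcr2 rose, from a control mean of 4.45 ± 1.98 FPKM to 10.8 ± 0.0717 FPKM (SD, n = 3 each, adjusted p 0.0380 by limma). Entpd1, the ectoenzyme CD39, rose, from a control mean of 3.95 ± 1.496 FPKM to 8.52 ± 0.840 FPKM (SD, n = 3 each, adjusted p 0.0433 by limma). Both are also made by macrophages and other myeloid cells, whose marker Csf1r rose, from a control mean of 45.1 ± 18.5 FPKM to 146 ± 49.9 FPKM (SD, n = 3 each, adjusted p 0.0362 by limma), and the part of such cells was not tested. With median-of-ratios factors Havcr2 and Entpd1 did not pass (limma adjusted p 0.0542 and 0.0617). Relative to T cell genes both passed (limma adjusted p 0.0323 each).

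Among the abundant Nr4a-linked genes that did not pass, Ctla4, an inhibitory receptor gene, had 76.8 FPKM in ultrasound 1 and 14.4 and 15.8 FPKM in ultrasound 2 and 3, against 81.5 to 88.8 FPKM in controls (limma adjusted p 0.116). Gzma, a granzyme gene, had 18.9 FPKM in ultrasound 1 and 178 and 82.3 FPKM in ultrasound 2 and 3, against 18.9 to 25.5 FPKM in controls (limma adjusted p 0.193). In both, ultrasound 1 lay just under the lowest control and ultrasound 2 and 3 lay far from the controls. Ctla4 was also 1 of 7 listed markers of CD4 T cells, of which 4 had log2 changes above 0 and 3 below. Cd4 itself had 41.5 to 59.8 FPKM in controls and 55.8, 57.2 and 74.6 FPKM in ultrasound 1, 2 and 3. The part of CD4 T cells in the Ctla4 level was not tested. Summed NK cell markers were also highest in ultrasound 2 and 3, and the part of NK cells in the Gzma level was not tested. Fcgr3, at 38.1, 27.6 and 41.4 FPKM in ultrasound 1, 2 and 3, was a large part of that sum. Of 6 tested NK cell markers, 3 had all ultrasound levels above all control levels, and 1, Eomes, had them below. The shares over all tested genes were 25.9% and 8.96%. Batf and Runx3, factors of effector differentiation, had log2 differences of -0.07 and 0.09. The count of 4 became 3 without control 1 and 12 without ultrasound 1 (4 higher, 8 lower). It was 0 without any 1 of the other 4, with 5 to 7 at an unadjusted p under 0.05.

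Across the 6 libraries, the genes most like each factor were sought by Pearson's r of log2(FPKM + 1) among tested genes with a mean of at least 5 FPKM. The points share the 2 groups, so r is high for any gene with a like group difference, and it is given with no test. Egr1 was followed by the AP-1 genes Jun and Junb, at 0.998 and 0.997, and by the kinase gene Pim3 at 0.997. Jun had 378, 457 and 566 FPKM in controls and 224, 86.3 and 136 FPKM in ultrasound libraries, the same order of the 6 libraries as Egr1. Nr4a1 was nearest to the adaptor gene Lat (0.983), to Chchd2 (0.982) and to Nfkbid (0.968), an NF-kB regulator. Lat spanned far less, from 246 to 326 FPKM over the 6 libraries. The order of the libraries also differed, since Nr4a1 was higher in ultrasound 3 than in ultrasound 1 and Lat, Chchd2 and Nfkbid were lower there.

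Nr4a2 was nearest to Arl4a (0.999), Hspa5 (0.998), which encodes a chaperone of the endoplasmic reticulum, and Eif1 (0.998), a translation initiation factor gene. Nr4a3 was nearest to Cep57 (0.999), Btg1 (0.992), an antiproliferative gene, and Terf1 (0.991). Egr2 was nearest to Rpl13 (0.995), Lars2 (0.992) and Zfp68 (0.991), and Egr3 to Zfas1 (0.998), Prdx6 (0.997) and Mrpl32 (0.996). With median-of-ratios factors 10 of the 18 nearest genes remained, and with a pseudocount of 0.1 17 did.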

How the data were processed

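The 3 control and 3 ultrasound RNA-seq libraries were grouped by their titles. Per the submitters' processing notes, HISAT2, HTSeq, DESeq2, R 3.2.0 and mm10 were used, with no roles given. FPKM per library were deposited by the authors, together with a signal (group means of DESeq2 normalized counts), a fold-change ratio, its log2, and p-values and q-values. Strand setting and filters are not given in the sources used here, so overlapping or antisense genes cannot be separated. The 10655 genes that reached 1 FPKM in 3 or more libraries were fitted with limma 3.58.1 (trend, robust; R 4.3.3) on log2(FPKM + 1), with two-sided p-values and Benjamini-Hochberg adjustment at 0.05. Whole reads were recovered from FPKM and the deposited group means: 100% of 77575 values lay within 0.05 of a whole number. The scripts were tested on simulated data. Same-numbered libraries deviated with correlations of -0.0406, 0.0513 and 0.0578. No deviation shared by number was seen, which cannot show whether the numbers pair the libraries.

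The 6 genes and all lists were chosen with earlier results of these data known. Named are the 6 genes, Egr4, Nab1 and Nab2; list genes that passed (at most the 4 largest rises and 4 largest falls); up to 4 abundant ones that did not; and the 3 nearest genes by r. Some list genes that this rule names are not reported here. Alternatives covered scaling, pseudocount, filters, the robust option, a replicate block, each library left out and the authors' values; voom on recovered reads was added after the data were seen. Tools were Python 3.11.15, numpy 2.4.6, pandas 2.3.3 and matplotlib 3.10.9. Promoter windows came from RefSeq, GRCm38.p6, the build that mm10 names. 2 B cell markers (Ighm and Ighd) were not matched. Windows of Egr1 and Egr3 were not used here.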

Additional observations from a re-analysis of the deposited data

How the results depend on the processing

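The median log2 change of the 6 genes stayed between -1.58 and -1.13 under all 15 alternatives, and each gene kept its direction. Nr4a3, Egr2 and Egr3 moved by more than the spread between replicates with voom on recovered reads (-1.92, -1.03 and -0.89) and in the authors' deposited table (-1.89, -0.99 and -0.88). Counts of genes past limma's adjusted p moved more, and the cause was not tested.

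Over all genes the 864 called became 468 with median-of-ratios factors, 1793 relative to T cell genes, 568 with voom and 2179 in the authors' deposited table. The directions also differed between settings. For the SRF and MAP kinase list the count was 3 relative to T cell genes, all higher. It was 3 with voom (1 higher, 2 lower) and 4 in the authors' table (1 higher, 3 lower). For the calcium list it was 3 relative to T cell genes, all higher, and 8 in the authors' table (2 higher, 6 lower). With median-of-ratios factors or voom it was 0, with 12 and 13 at an unadjusted p under 0.05. For the Egr2 and Egr3 targets it was 0 with median-of-ratios factors or voom, with 9 each at an unadjusted p under 0.05. It was 2 relative to T cell genes (1 higher, 1 lower) and 6 in the authors' table (1 higher, 5 lower). The Nr4a-linked list gave 2 with median-of-ratios factors, both lower, and 3 relative to T cell genes (2 higher, 1 lower). It gave 5 with voom (1 higher, 4 lower) and 6 in the authors' table (2 higher, 4 lower). The immediate early list gave 13 with median-of-ratios factors and 13 relative to T cell genes. It gave 20 with voom and 27 in the authors' table, all lower. Without a filter, and with the replicate block, limma called 0 genes in the whole table and 0 in every list, with 4216 and 3249 genes at an unadjusted p under 0.05. The block could change no call of the 6 genes, which have none.

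Leaving out 1 library gave 0 to 5628 genes in the whole table, 0 to 15 in the SRF and MAP kinase list, 0 to 15 in the calcium list, 0 to 10 in the Egr2 and Egr3 targets, 0 to 12 in the Nr4a-linked list and 0 to 31 in the immediate early list. Depth was lowest for Egr4, at 6 to 34 reads, among the genes named; other listed genes under the FPKM filter, such as Fosl1 (named after its values were seen) with 16 and 7 reads in ultrasound 2 and 3, were not tested either.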
